A study of Danio rerio with 6 samples.

Results

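The genes described here encode the nuclear subunits of the oxidative phosphorylation (OXPHOS) complexes. They were chosen from the array's platform annotation by gene symbol alone. The symbols start with nduf, uqcr, atp5, cox4, cox5, cox6, cox7 or cox8, or name succinate dehydrogenase, cytochrome c1 or cytochrome c. In this way 91 probe sets for 84 genes were found among 15502 tested probe sets and 8793 genes with a single symbol. The rule used no measured value, but it was set with earlier results of these data known. Of the 84 genes, 31 encode subunits of complex I, 4 of complex II, 8 of complex III, 16 belong to complex IV and 18 to complex V. The other 7 are 6 complex I assembly factors, ndufaf1, ndufaf2, ndufaf4, ndufaf5, ndufaf6 and ndufaf8, and cycsb, a cytochrome c gene. ndufa4a and ndufa4b carry a complex I name but are counted here in complex IV, where the mammalian NDUFA4 protein is now placed.

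Oxidative phosphorylation takes place at the mitochondrial inner membrane. Complex I takes electrons from NADH and complex II from succinate, complex III passes them to cytochrome c, and complex IV hands them to oxygen. Complexes I, III and IV pump protons, and complex V, the ATP synthase, uses the returning protons to make ATP. Most subunits are encoded in the nucleus, and the remainder, encoded by the mitochondrial genome, were not analysed here. Tumours differ widely in how much they rely on this route or on glycolysis, and heart, muscle and liver are tissues rich in mitochondria.

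Expression was measured in 6 zebrafish tumours, with 1 Affymetrix array per tumour. Of these, 3 were small round blue cell tumours (SRBCT) that carry the genotype label Tg(HSP:EWS-FLI1); p53M214K/M214K. In these fish the human EWS-FLI1 fusion gene, the driver of Ewing sarcoma, was placed under a heat shock promoter and brought in by a transposon injected into the embryo. The 3 malignant peripheral nerve sheath tumours (MPNST) carry the label p53M214K/M214K, so both groups share the homozygous p53 mutation and the comparison asks how the transgenic tumours differ from another tumour type on that background. The titles call the replicates biological. Ages are not given in the labels. Each difference given is the SRBCT mean minus the MPNST mean of the deposited log2 values, SD is over n = 3 arrays, and the number of arrays limits the precision.

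Some arrays stood apart. Of 11 genes listed as neuron markers 9 were measured. Their summed linear levels were 2908 and 2218 on SRBCT 1 and SRBCT 2 but 259 on SRBCT 3, against 162 to 357 on the MPNST arrays. On SRBCT 1 and 2 the transcription factor gene nkx2.2a was the brightest and weighed most in the sums, at 10.76 and 9.58, against 4.18 on SRBCT 3. The sums are therefore not a measure of neuron content, but the fall on SRBCT 3 was not confined to this gene. On SRBCT 1, 2 and 3 elavl3 was at 8.50, 8.80 and 4.13, and sypa was at 8.46, 8.96 and 3.24. Of the 9 markers only syt1a was higher on SRBCT 3 than on SRBCT 1 and 2, at 5.61, 6.10 and 6.55. Of 13 liver markers 11 were measured, and they summed to 382 to 1361 on the SRBCT arrays, and to 25014, 928 and 1937 on MPNST 1, 2 and 3. Intestine and pancreas markers (11 of 14 measured) summed to 959, 354 and 13509 on SRBCT 1, 2 and 3, and to 352 to 2972 on the MPNST arrays. The sum on SRBCT 3 mostly follows digestive enzyme genes, with prss1, ela2l and ela2 at 11.99, 11.84 and 11.33. The markers fabp2 and ins were at 6.14 and 6.13 there. Of 11 oocyte markers 9 were measured, and they summed to 178 to 367 on the SRBCT arrays, and to 15142, 6254 and 4568 on MPNST 1, 2 and 3. All 9 had separated groups with SRBCT below, and 5 of them passed with limma (adjusted p under 0.05). Of all genes 10% were separated with SRBCT below, and 0.903% of all probe sets passed in either direction. Erythroid markers (6 of 8 measured) summed to 831 to 1969 on the SRBCT arrays and to 2057 to 5677 on the MPNST arrays. These sums mostly follow the brightest marker, hbaa1, at 9.42 to 10.78 in SRBCT and 10.91 to 12.29 in MPNST. The other globin gene measured, hbba2, ran the other way, by 1.36 with overlap, and was the only 1 of the 6 to do so. Leukocyte markers (8 of 9 measured) summed to 1765 to 4423 on the SRBCT arrays and to 4615 to 7696 on the MPNST arrays. The brightest on every array was cd74a, at 9.62 to 11.35 in SRBCT and 11.51 to 11.69 in MPNST. Of the 8 markers, 2 went the other way with overlap, mpx by 0.34 and lyz by 0.11. On MPNST 1 lyz was at 11.31, against 5.42 and 5.86 on MPNST 2 and 3. The Schwann cell and neural crest markers (7 of 9 measured) went in both directions, between pmp22b with a difference of -4.26 (adjusted p 0.111) and sox9b, which averaged 9.47 ± 3.71 on the SRBCT arrays and 4.47 ± 0.08 on the MPNST arrays (adjusted p 0.282). The regulator sox10 averaged 10.66 ± 0.34 on the SRBCT arrays and 10.64 ± 0.17 on the MPNST arrays. On SRBCT 1, 2 and 3 sox9b was at 11.62, 11.60 and 5.19, so its SRBCT mean hides a split. On the same arrays foxd3 was at 6.60, 5.30 and 9.60, and pmp22b at 4.12, 4.95 and 7.54. For sox9b, foxd3, pmp22b and crestin SRBCT 3 was the SRBCT array nearest to the MPNST mean. For sox10, mbpa and s100b it was not. These are dissected tumours, in which fewer cells of a type and less RNA per cell cannot be told apart.

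No OXPHOS probe set passed the test. limma was used with Benjamini-Hochberg adjustment over all 15502 probe sets, and calls were made at an adjusted p under 0.05. In either direction 0 of 91 OXPHOS probe sets were called. Of all probe sets 0.903% were called, so few that 0 calls among 91 do not set the OXPHOS probe sets apart. At an unadjusted p under 0.05 there were 7 of 91 OXPHOS probe sets (7.69%), against 15.2% of all probe sets. Most differences were small. Of the 84 genes, 69 (82.1%) differed by less than 0.5 log2 units, against 62.9% of all genes. Only cox4i2, atp5pb and ndufs4 differed by more than 1, which is 3.57% of the OXPHOS genes, against 15% of all genes.

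The median difference of the 84 genes was 0.14, with 53 above 0 (63.1%), against a median of 0.07 and 55.9% above 0 over all genes. Among all genes as bright as the upper part of the array, above the median level of 5.57, the median was 0.00. The OXPHOS genes lay in that upper part with 82 of 84. Their shift changed with single arrays. Without MPNST 1 the median of the 84 genes was 0.07, with 43 above 0, against a median of 0.05 over all genes. In 13 genes (15.5%) the 3 SRBCT values lay above the 3 MPNST values, and in 1 (1.19%) below them. Over all genes the shares were 12.3% above and 10% below, and over genes above the median level 10.4% and 11.6%.

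**Figure D1:**
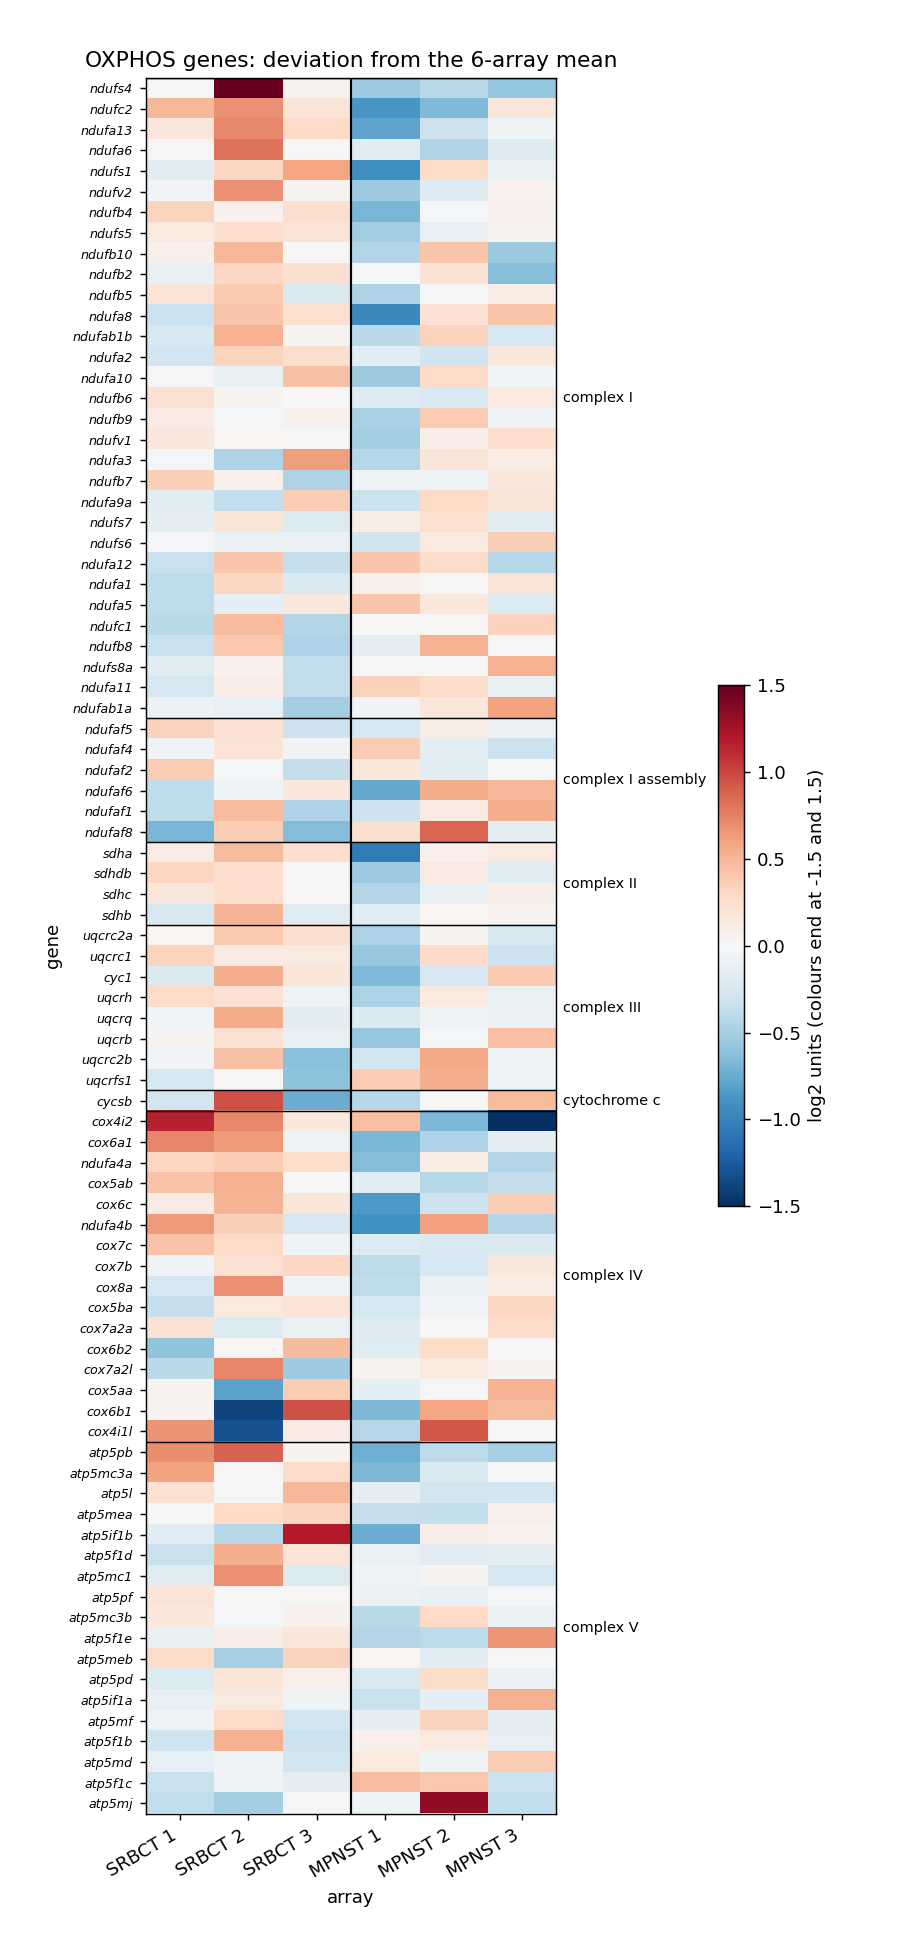
Each row is 1 of the 84 OXPHOS genes and each column 1 array, with colour giving the deviation of the deposited log2 value from the gene's 6-array mean (red above, blue below). Within each complex the genes run from the highest to the lowest SRBCT minus MPNST difference. The MPNST 1 column is mostly blue in complexes I to V and the SRBCT 2 column mostly red, with smaller median deviations in complex V.

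The levels of the members differed from array to array. SRBCT 2 held the highest value of 30 of the 84 genes (35.7%), against 22% of all genes, and MPNST 1 held the lowest value of 36 (42.9%), against 24.7% of all genes. The median deviation of the 84 genes from their own 6-array mean was -0.03, 0.26 and 0.02 on SRBCT 1, 2 and 3. On MPNST 1, 2 and 3 it was -0.30, 0.03 and 0.00. The other 4 arrays lay close together. Of the 3 GAPDH control probe sets on the array, all 3 were lowest on MPNST 1. The 3′ GAPDH control exceeded the 5′ control, a sign of RNA quality, by 0.41, 0.84 and 0.68 on SRBCT 1, 2 and 3 and by 1.1, 1.04 and 1.04 on MPNST 1, 2 and 3, and the part of this in the members' values was not tested. The largest gap within a group, between MPNST 1 and MPNST 2, exceeded the median difference between the groups. Over all genes the per-array medians stayed between -0.10 and 0.03.

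Complexes I to IV shared this order and complex V showed less of it. On SRBCT 2 the median deviation was 0.31 for complex I, 0.37 for complex II, 0.31 for complex III and 0.32 for complex IV, and 0.06 for complex V. On MPNST 1 it was -0.32, -0.49, -0.47 and -0.32 for complexes I to IV, and -0.13 for complex V. All 4 complex II genes and all 8 complex III genes were above their own mean on SRBCT 2. On MPNST 1 none of the 4 complex II genes and 1 of the 8 complex III genes was above its mean. In complexes I, IV and V, 6 of 31, 2 of 16 and 4 of 18 genes were above their own mean on MPNST 1. On SRBCT 2 the counts were 24 of 31, 12 of 16 and 11 of 18. The liver and oocyte markers that were high on MPNST 1 had median deviations of 4.77 and 3.38 there, and their part in these values was not tested. The skeletal muscle markers (12 of 14 measured) summed to 582 on SRBCT 2, against 310 and 385 on SRBCT 3 and SRBCT 1 and 271 to 291 in MPNST, and their part was not tested either. The muscle creatine kinase gene ckma was at 5.94 on SRBCT 2, against 4.58 and 4.63 on SRBCT 1 and 3. The markers ckmb, mylpfa, mylz3, tnnt3b and atp2a1 also had their highest value on SRBCT 2. In contrast, tnnt3a, tnni2a.4 and pvalb2 had their lowest value there, at 3.26, 4.48 and 4.11, and acta1a, desma and pvalb1 had neither. Only 1 of the 12 muscle markers lay above the median level.

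**Figure D2:**
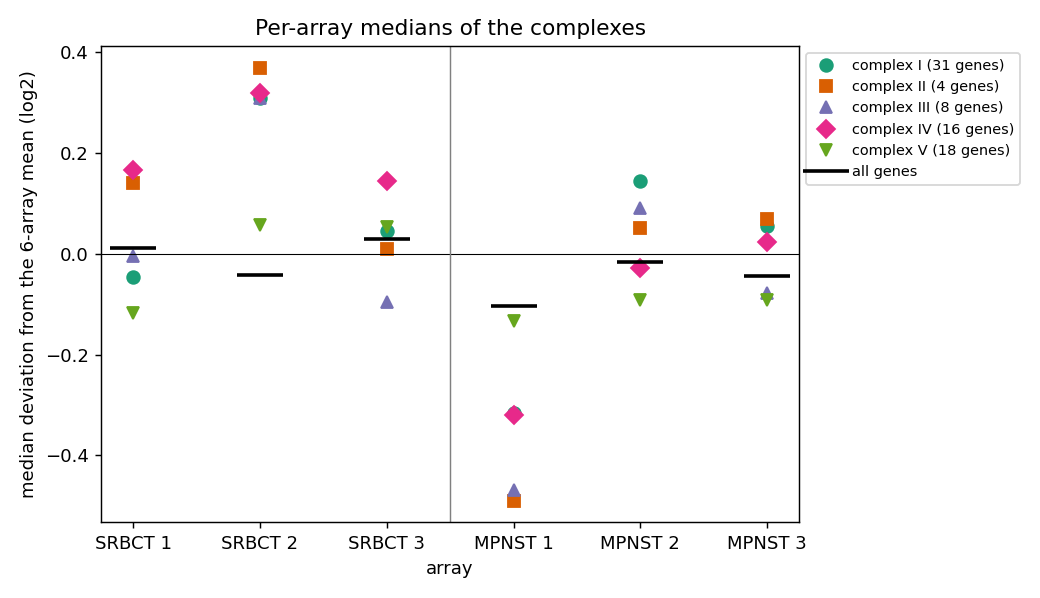
The y axis gives the median deviation from the 6-array mean (log2) of the genes of each complex on each array, with coloured markers for complexes I to V and black bars for all genes. Complexes I to IV lie between 0.31 and 0.37 on SRBCT 2 and between -0.49 and -0.32 on MPNST 1.

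By complex, the median difference between the groups was 0.18 for complex I, 0.35 for complex II, 0.27 for complex III, 0.28 for complex IV and 0.12 for complex V. The SD of the per-array medians within groups was 0.22, 0.26, 0.25, 0.15 and 0.07 in the same order. The difference was below that spread for complex I and above it for the others, by the most for complex IV. That spread is not the error of a difference between group means, and the median of 0.07 over all genes was not subtracted. Complex IV was at 0.12 with ndufa4a and ndufa4b counted in complex I, and at 0.135 without MPNST 1. Without MPNST 1 complex I was at -0.02, complex II at 0.17, complex III at 0.11 and complex V at 0.04. Complex III was at 0.09 without SRBCT 2. With arrays weighted by their quality in limma, the median of the 84 genes was 0.0598, against 0.0593 over all genes, with complex I at 0.0159 and complex IV at 0.1263. The order of the complexes is therefore not settled by 3 arrays a group. The complex I assembly factors, which build the enzyme without becoming part of it, had a median of -0.09, with 3 of 6 above 0 and a range from -0.64 (ndufaf8) to 0.17 (ndufaf5).

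**Figure D3:**
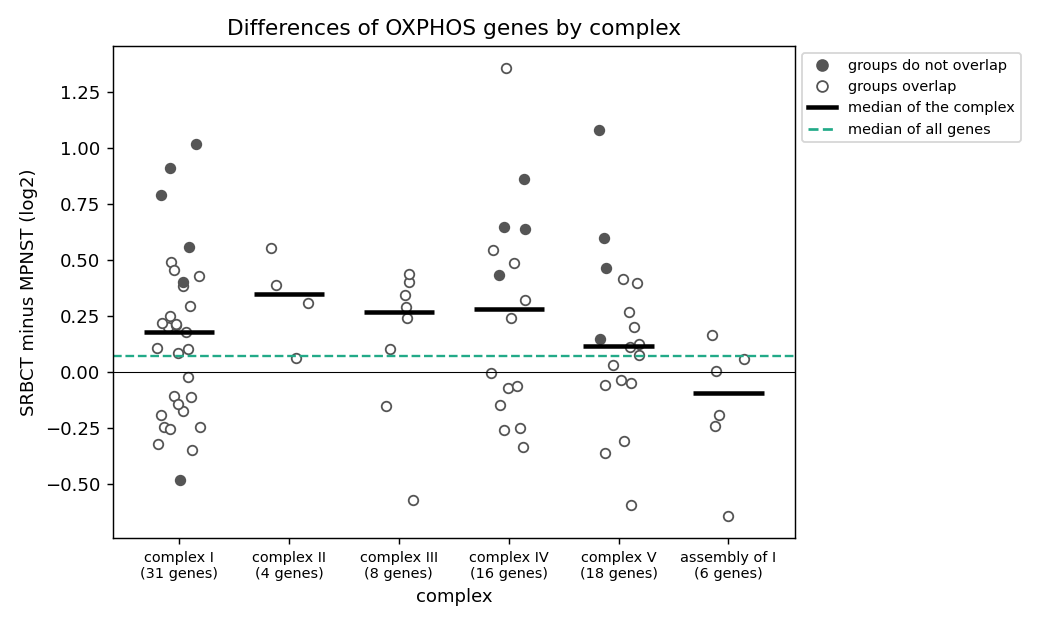
Each point is a gene, placed by its SRBCT minus MPNST difference (log2) and grouped by complex, with filled points where the 3 SRBCT values lie beyond the 3 MPNST values. Black bars mark the median of each complex, from 0.12 in complex V to 0.35 in complex II, with the assembly factors at -0.09, and the dashed line marks the median of all genes at 0.07.

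In complex I, the 5 catalytic core genes differed by -0.32 to 0.49 by their brightest probe sets, with a median of 0.10, against a median of 0.19 over the 26 accessory genes. ndufs1, which encodes the largest iron-sulfur subunit, was at 9.01, 9.48 and 9.76 in SRBCT and at 8.25, 9.45 and 9.07 in MPNST. The groups overlapped, and the difference was 0.49 (SE 0.37, adjusted p 0.544). ndufv1, whose product binds NADH, averaged 9.42 ± 0.10 in SRBCT and 9.31 ± 0.41 in MPNST. ndufs7, an iron-sulfur subunit near the ubiquinone site, averaged 10.38 ± 0.21 in SRBCT and 10.49 ± 0.20 in MPNST, with a range of 0.43 over the 6 arrays. ndufs8a, another iron-sulfur subunit, differed by -0.32. The probe sets of ndufv2, an iron-sulfur partner of ndufv1, gave 0.46 and 0.92, the second with no overlap between the groups (adjusted p 0.277).

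Of the 26 accessory genes, 5 (19.2%) had separated groups with SRBCT above and 1 (3.85%) with SRBCT below. Over all genes the shares were 12.3% above and 10% below, and over genes above the median level 10.4% and 11.6%. ndufs4, an accessory subunit whose loss causes Leigh syndrome in humans, was at 9.95, 11.49 and 10.03 in SRBCT and at 9.44, 9.57 and 9.40 in MPNST. The groups did not overlap, but SRBCT 2 stood more than 1 log2 unit above the other SRBCT arrays. The difference was 1.02 (2.03-fold, SE 0.43, 95% interval -0.03 to 2.07, adjusted p 0.34). Over the alternative settings it lay between 0.52 and 1.29.

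ndufc2, a membrane arm subunit, was at 11.04, 11.23 and 10.74 in SRBCT and at 9.67, 9.88 and 10.72 in MPNST. MPNST 3 nearly reached SRBCT 3, and the difference was 0.91 (SE 0.32, 95% interval 0.13 to 1.70, adjusted p 0.289). ndufa13, known in mammals also as GRIM-19, differed by 0.79 (adjusted p 0.28) and ndufa6, a LYR-motif subunit, by 0.56 (adjusted p 0.398). ndufs5 differed by 0.40 with SRBCT values of 10.15, 10.26 and 10.20, the tightest of these. The other 19 accessory genes lay between -0.35 (ndufa11) and 0.43 (ndufb4), all with overlap between the groups.

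ndufab1a was the single OXPHOS gene whose SRBCT values all lay below the MPNST values. It encodes the mitochondrial acyl carrier protein, which is also a subunit of complex I. Its brightest probe set was at 8.29, 8.25 and 7.86 in SRBCT and at 8.32, 8.55 and 8.98 in MPNST, a difference of -0.48 (adjusted p 0.411). The separation rested on a gap of 0.03 between MPNST 1 and SRBCT 1. The other probe sets of the gene differed by -0.04 and -0.22 and overlapped between the groups, and the name of the last marks probes that may cross-hybridize. The duplicate gene ndufab1b differed by 0.21.

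All 4 complex II genes had differences above 0, against 55.9% of all genes. sdha, the flavoprotein that oxidizes succinate, was at 8.60, 8.97 and 8.74 in SRBCT and at 7.44, 8.57 and 8.64 in MPNST. MPNST 1 was more than 1 log2 unit below the other MPNST arrays, and these overlapped with SRBCT. The difference was 0.55 (SE 0.36, adjusted p 0.496). The iron-sulfur subunit gene sdhb differed by 0.06, with 9.79 ± 0.42 in SRBCT and 9.72 ± 0.12 in MPNST. The membrane anchor genes sdhc and sdhdb differed by 0.31 and 0.39.

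In complex III, 6 of 8 genes (75%) had differences above 0, against 55.9% of all genes, and none had separated groups. Of all genes 12.3% were separated with SRBCT above and 10% with SRBCT below. With 8 genes neither count sets complex III apart. uqcrfs1, the Rieske iron-sulfur protein, ran the other way. It was at 9.95, 10.24 and 9.60 in SRBCT and at 10.60, 10.76 and 10.15 in MPNST, where only MPNST 3 fell among the SRBCT values. The difference was -0.57 (SE 0.26, 95% interval -1.21 to 0.06, adjusted p 0.369). cyc1, the cytochrome c1 that receives electrons from the Rieske protein, differed by 0.34, with 9.82 ± 0.38 in SRBCT and 9.48 ± 0.53 in MPNST. uqcrc1, a core protein gene, averaged 10.14 ± 0.12 in SRBCT tumours and 9.74 ± 0.44 in MPNST tumours and differed by 0.40. The small subunit genes uqcrb, uqcrh and uqcrq differed by 0.10, 0.29 and 0.24. cycsb, the mobile electron carrier between complexes III and IV, was at 10.36, 11.61 and 9.89 in SRBCT and at 10.21, 10.65 and 11.11 in MPNST, with a difference of -0.04.

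Among complexes I to V, complex IV held the most variable members. Of its 16 genes 11 (68.8%) had a range over 1 log2 unit across the 6 arrays, against 41.7% of the OXPHOS genes. The share was 60.6% over all genes and 71.8% over genes above the median level, where 15 of the 16 lay. cox4i2 had the widest range, 2.96. In mammals COX4I2 is the isoform of subunit 4 that is prominent in lung and responds to oxygen. It was at 9.50, 9.07 and 8.51 in SRBCT and at 8.80, 7.67 and 6.54 in MPNST. MPNST 1 lay above SRBCT 3, so the groups overlapped. The difference was 1.36 (2.56-fold, SE 0.59, 95% interval -0.09 to 2.80, adjusted p 0.349), and it lay between 0.79 and 1.92 over the alternative settings.

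cox6a1 was at 11.93, 11.84 and 11.12 in SRBCT and at 10.51, 10.74 and 11.05 in MPNST. It encodes the isoform of subunit 6A that in mammals is expressed outside heart and muscle. The groups were separated by 0.07 between SRBCT 3 and MPNST 3, with a difference of 0.86 (SE 0.29, 95% interval 0.16 to 1.57, adjusted p 0.275). Without SRBCT 3 the limma adjusted p was 0.0541, in a fit that called 3.67% of all probe sets higher. Without each other array in turn it lay between 0.341 and 0.543. cox5ab, a subunit 5A gene, averaged 9.85 ± 0.29 in SRBCT and 9.21 ± 0.13 in MPNST, a difference of 0.64 (adjusted p 0.28). ndufa4a was at 11.27, 11.33 and 11.21 in SRBCT and at 10.30, 11.06 and 10.51 in MPNST (difference 0.65, adjusted p 0.302). cox7c, a small subunit gene, was at 11.62 ± 0.25 in SRBCT and 11.19 ± 0.02 in MPNST and differed by 0.43 without overlap. The other subunit genes not described singly were 7, between -0.07 (cox6b2) and 0.55 (cox6c), all with overlap.

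SRBCT 2, the array on which most OXPHOS genes were high, held the lowest value of 4 of the 16 complex IV genes (25%). The share was 21.7% over all genes and 9.52% over the 84 OXPHOS genes. The genes that follow were singled out after their values were seen. cox4i1l, a subunit 4 gene, was at 9.36, 7.38 and 8.81 in SRBCT and at 8.25, 9.62 and 8.68 in MPNST. cox6b1, a subunit 6B gene, was at 10.01, 8.59 and 10.93 in SRBCT and at 9.30, 10.56 and 10.45 in MPNST. cox5aa was at 10.92, 10.07 and 11.26 in SRBCT and at 10.74, 10.86 and 11.40 in MPNST. In each of these the lowest of the 6 values was on SRBCT 2, and the differences between the groups were -0.33, -0.26 and -0.25, well within the spread. The remaining gene of the 4 was cox7a2a. cox7a2l, whose mammalian product helps to join complexes III and IV into supercomplexes, was instead highest on SRBCT 2 and differed by -0.15.

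**Figure D4:**
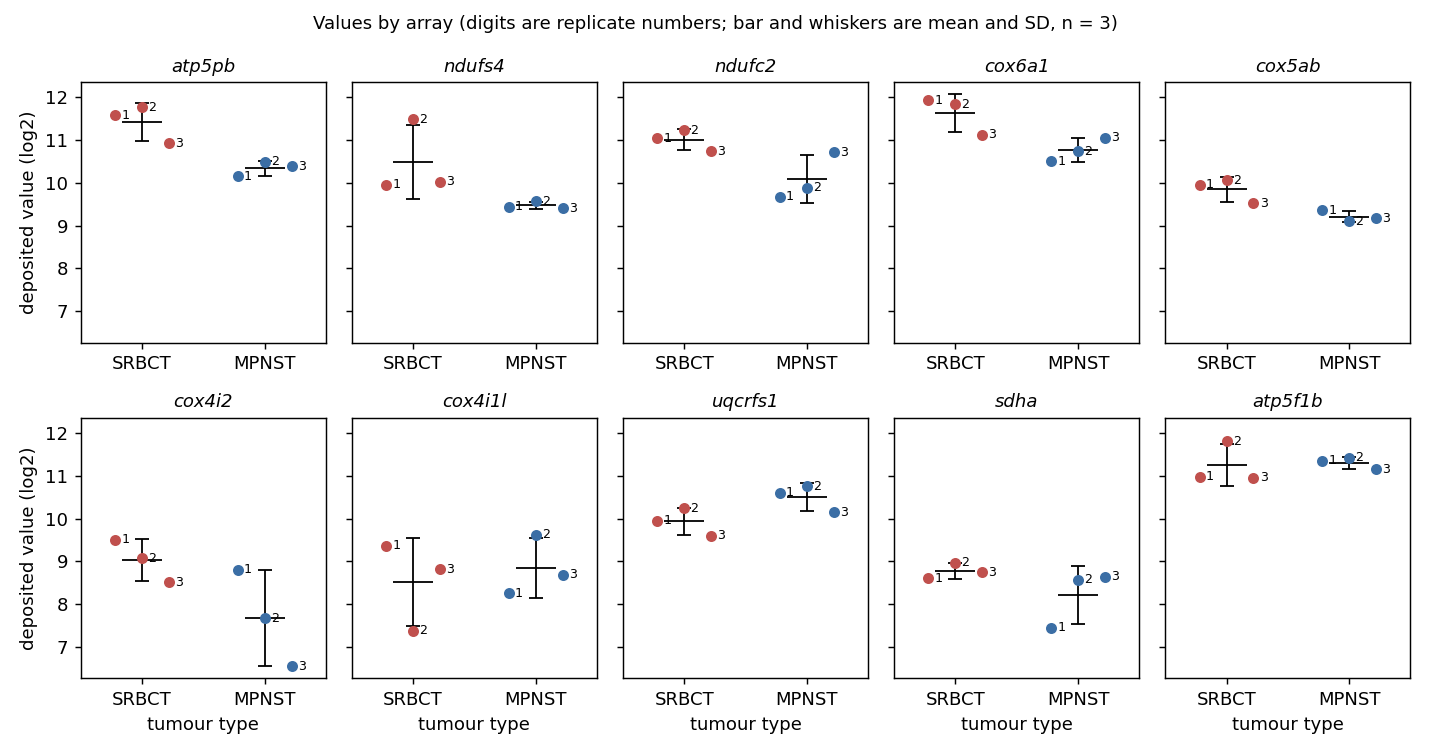
Each panel gives the deposited log2 values of 1 gene, with red points for SRBCT and blue for MPNST arrays, digits for replicate numbers, and bars with whiskers for mean and SD (n = 3). The SRBCT points of atp5pb, ndufs4, ndufc2, cox6a1 and cox5ab all lie above the MPNST points, those of uqcrfs1 lie lower with overlap, and cox4i1l is lowest on SRBCT 2.

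In complex V, atp5pb had the smallest p-value of all members. It encodes subunit b of the peripheral stalk, which holds the catalytic head still against the turning rotor. It was at 11.58, 11.77 and 10.93 in SRBCT and at 10.15, 10.49 and 10.39 in MPNST, with 0.44 between the nearest arrays of the groups. The difference was 1.08 (2.12-fold, SE 0.27, 95% interval 0.42 to 1.74, adjusted p 0.174). Without SRBCT 3 it was 1.33 with an adjusted p of 0.0242, the only OXPHOS probe set to pass in any of the 6 fits that left out 1 array. In that fit 1 of 91 OXPHOS probe sets was called higher and 0 lower, against 3.67% of all probe sets called higher and 3.68% called lower. The other stalk genes, atp5pd and atp5pf, differed by 0.03 and 0.15. atp5pf had the smallest range of all members, 0.31 over the 6 arrays, with the 3 SRBCT values just above the 3 MPNST values.

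The catalytic head of complex V did not shift in 1 direction. atp5f1b, the catalytic beta subunit, was at 10.98, 11.81 and 10.95 in SRBCT and at 11.35, 11.42 and 11.15 in MPNST, a difference of -0.06 (SE 0.28, 95% interval -0.75 to 0.63). The gamma, delta and epsilon subunit genes atp5f1c, atp5f1d and atp5f1e differed by -0.36, 0.27 and 0.11. The alpha subunit has no probe set with a single symbol here. A probe set annotated to both its gene and gcdha, not counted among the members, differed by 0.68. Its SRBCT values all lay above its MPNST values (limma adjusted p 0.213). Of the c ring genes, whose products form the rotor, atp5mc3a differed by 0.60 without overlap (adjusted p 0.352) and atp5mc1 and atp5mc3b by 0.20 and 0.13. The membrane subunit genes ran between -0.59 for atp5mj and 0.46 for atp5l. atp5mj was at 10.14 to 10.64 on the SRBCT arrays and at 10.59, 11.98 and 10.28 on MPNST 1, 2 and 3, with MPNST 2 above all the others. The second probe set of atp5l was dim, at 2.67 ± 0.07 in SRBCT and 2.62 ± 0.07 in MPNST. The inhibitor genes atp5if1a and atp5if1b, whose products block ATP hydrolysis by the synthase, differed by -0.04 and 0.40. atp5if1b was at 9.22 on SRBCT 3, against 7.60 and 7.86 on SRBCT 2 and 1 and 7.28 to 8.13 in MPNST, and its difference was -0.10 without SRBCT 3.

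Zebrafish keep many OXPHOS genes as duplicates, and 9 duplicate or isoform pairs could be followed on each array. The difference between the paired genes on an array was compared between the groups with an exact two-sided permutation test, which with 3 arrays against 3 cannot give a p below 0.1. No pair could therefore reach an adjusted p under 0.05 over the 9 pairs, and the test cannot decide whether a balance differs. The balance of cox4i2 over cox4i1l was 0.14, 1.69 and -0.30 in SRBCT and 0.55, -1.95 and -2.14 in MPNST. Its shift of 1.69 was the largest of the pairs, with MPNST 1 among the SRBCT values (exact permutation p 0.3, adjusted p 0.54). The balance of cox5ab over cox5aa shifted by 0.89 (exact permutation p 0.2, adjusted p 0.45). For uqcrc2a over uqcrc2b, duplicate core protein genes of complex III, the groups did not overlap. The balance was 0.07, -0.06 and 0.86 in SRBCT and -0.19, -0.54 and -0.18 in MPNST. The shift was 0.59 (exact permutation p 0.1, the lowest possible, adjusted p 0.45), and 0.31 without SRBCT 3. The other 6 pairs shifted by -0.70 to 0.47 with overlap, ndufab1a over ndufab1b having the lowest and atp5mc3a over atp5mc3b the highest.

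The OXPHOS genes varied less over the 6 arrays than most genes did. The median range, highest minus lowest array, was 0.92 for the 84 genes, against 1.19 for all genes and 1.35 for the genes above the median level. A range over 1 was found in 35 of the 84 (41.7%), against 60.6% of all genes and 71.8% of those above the median level. The median SD within SRBCT was 0.30 for OXPHOS genes and 0.40 for all genes. Within MPNST it was 0.32 for OXPHOS genes and 0.28 for all genes. For the genes above the median level it was 0.48 within SRBCT and 0.34 within MPNST, so within MPNST the OXPHOS value lay above that of all genes and slightly below that of these brighter genes. These figures describe the arrays, and no test was made of them.

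**Figure D5:**
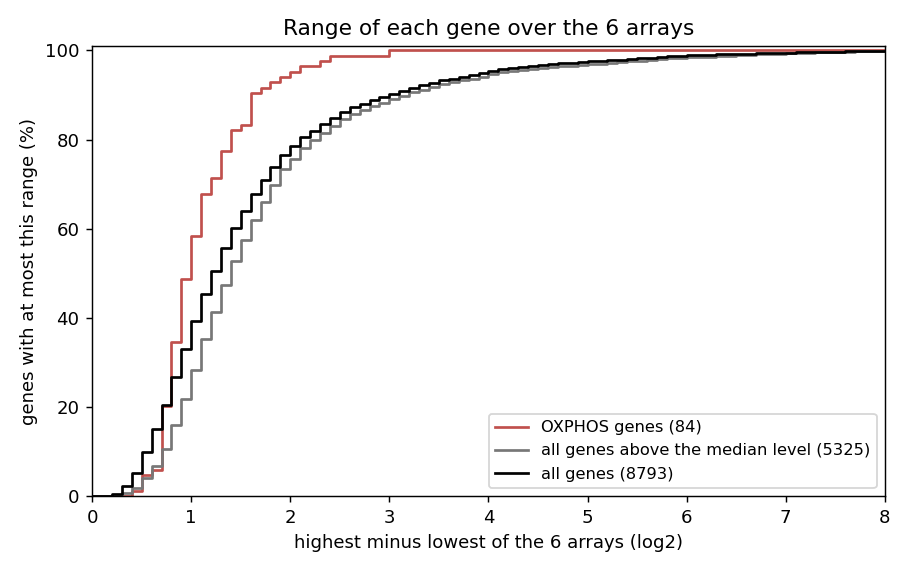
The curves give the percentage of genes (y axis) whose highest and lowest arrays differ by at most the log2 range on the x axis, for the 84 OXPHOS genes in red, genes above the median level in grey and all genes in black. The red curve lies above the others from a range of about 0.8 upward, and its largest value, 2.96, belongs to cox4i2.

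Genes that build, feed or regulate the chain were compared through 4 lists, and none of their measured members passed with limma over the 6 arrays. At an unadjusted p under 0.05 there were 1 of 20 further assembly factors (5%), 3 of 23 citrate cycle genes (13%), 0 of 13 regulators and 3 of 16 carriers and channels (18.8%), against 15.7% of all genes. Of 34 further assembly factors 20 were measured, with a median difference of -0.06. The smallest p-values were those of atpaf2, a complex V assembly factor (-0.91, adjusted p 0.244), and surf1, a complex IV assembly factor. surf1 was at 7.72, 9.43 and 8.38 in SRBCT and at 7.35, 7.51 and 7.67 in MPNST, with means of 8.51 ± 0.86 and 7.51 ± 0.16 (adjusted p 0.348). Like ndufs4 it was highest on SRBCT 2. Of 29 pyruvate dehydrogenase and citrate cycle genes 23 were measured, with a median of 0.05. The smallest p-values were those of the isocitrate dehydrogenase genes idh3g (-0.69, limma adjusted p 0.225) and idh3a (-0.58, limma adjusted p 0.289). The idh3g probe set was dim, at 3.11 to 4.03 over the arrays, which limits its value. Another isocitrate dehydrogenase gene, idh2, went the other way by 0.61 (adjusted p 0.289), also without overlap between the groups. Of 24 regulators of mitochondrial biogenesis 13 were measured, with a median of 0.17. Their smallest p-values belonged to yy1b (0.25, adjusted p 0.516) and ppargc1b (-0.35, adjusted p 0.533), a coactivator of mitochondrial genes.

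Of 22 carriers and channels of the mitochondrial membranes 16 were measured, with a median difference of 0.10. vdac3, an outer membrane channel through which metabolites pass, was at 8.11, 7.88 and 7.59 in SRBCT and at 6.25, 6.87 and 6.51 in MPNST. The groups were 0.72 apart at the nearest arrays, and the difference was 1.32 (2.49-fold, SE 0.25, adjusted p 0.098). vdac1, a related channel, differed by 0.80 (adjusted p 0.25), again without overlap. Without SRBCT 3, vdac3 and slc25a11, the oxoglutarate carrier, passed the threshold upward, 2 of the 16, in a fit that called 3.67% of all probe sets higher. slc25a11 was at 8.30, 8.52 and 6.71 in SRBCT and at 6.28, 6.54 and 6.70 in MPNST, with SRBCT 3 level with MPNST 3.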

How the data were processed

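The deposited values are log2 expression values, 1 per probe set and array, from 1.86 to 13.88. RMA, affy and R 2.2.0 are listed in the submitters' processing notes. With RMA, background is removed, arrays are brought to a common distribution and probes are combined, and dim values are drawn together, so changes of dim probe sets are understated. The base of the logarithm was inferred from RMA and from the range. Filters are not given in the sources used here, and scanner files were not analysed here. Per the labels' protocols, 2.5 micrograms of total RNA were amplified from an oligo(dT) primer.

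Of 15617 probe sets, 115 AFFX controls were left out. Names came from the platform annotation of 2016, updated through Entrez identifiers with a RefSeq table of the GRCz12tu assembly. This changed no member's symbol. A gene was represented by its probe set with the highest mean, and 6 members had several. limma 3.58.1 in R 4.3.3 compared the groups over all 6 arrays without covariates, and the methods were tested on simulated data. Errors are SD or SE, intervals are 95%. Summed marker levels add values after 2 to the power of the log2 value. The members, the lists and the tests were chosen with earlier results of these data known. The named genes are the catalytic core genes, all duplicate or isoform pairs, up to 2 genes a complex with the largest separated differences each way, and the 2 smallest p-values of each related list. Others are named to account for the members. Alternatives were cyclic loess, median centring, quantile normalization repeated, omission of dim probe sets, array weights, trended and robust variance, omission of each array in turn, a block for the replicate number, a minimum log2 difference of 1, averaging the probe sets of a gene and the older symbols. The replicate numbers mark different fish. With 3 arrays a group, the number of arrays limits precision. The promoter search that had been planned was not run.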

Additional observations from a re-analysis of the deposited data

How the results depend on the processing

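No OXPHOS probe set was called over the 6 arrays under any of cyclic loess, median centring, a second quantile normalization, omission of dim probe sets, trended and robust variance, array weights, a minimum log2 difference of 1 or the platform's own symbols. The count lay between 0 and 1 over the 6 fits without 1 array, the 1 being atp5pb without SRBCT 3. Over these fits the median difference lay between 0.07 and 0.19 for the 84 genes, between 0.135 and 0.375 for complex IV and between 0.0367 and 0.1525 for complex V, the lowest in each case without MPNST 1. Complex IV was at 0.12 with ndufa4a and ndufa4b counted in complex I, an alternative chosen after seeing the data. With array weights, applied to the medians after seeing the data, the 84 genes were at 0.0598 and complexes I to V at 0.0159, 0.2841, 0.1358, 0.1263 and 0.0683. The cause of these shifts was not tested. Under the 3 other scalings the median of the 84 genes lay between 0.08 with cyclic loess and 0.21 with a second quantile normalization, and each complex stayed above 0. With the replicate number as a block the count was 0 and the median 0.14. Same-numbered arrays did not deviate together (correlations of 0.0627, 0.0703 and -0.0461), and arrays of different numbers lay between -0.121 and 0.0842. With so few arrays these values show no pairing by number but cannot exclude a shared batch. Dim signal limits ndufa4b and ndufaf2, the members below the median level.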
